A study of Mus musculus with 4 samples.

Results

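The genes examined were 9 genes of mouse glycolysis and pyruvate use that fall into 4 families, the lactate dehydrogenases *Ldha*, *Ldhb* and *Ldhc*, the phosphoglycerate kinases *Pgk1* and *Pgk2*, the pyruvate dehydrogenase E1 alpha subunits *Pdha1* and *Pdha2*, and the hexokinases *Hk1* and *Hk2*. They were taken by symbol from the 32285 genes of the count tables, and each of the 9 matched 1 row. Transcripts of single cells were counted in dissociated testes at postnatal day 15 (P15) from 2 wild-type and 2 *Meioc*-null C57BL/6N mice, 1 testis per pup, to ask what loss of MEIOC, a germ-cell protein needed around meiotic entry, does to transcript levels. The *Meioc*-null mice carried the allele *Meioc* tm1.1Dpc. Mice of both genotypes were also heterozygous for *Hspa2* tm1Dix and homozygous for the *ROSA26* tdTomato reporter with its stop still in place. Each batch held 1 littermate pair, a wild-type and a *Meioc*-null pup, and the batch number is the replicate number used here. Part of the interstitium was discarded during dissociation, so the somatic cell types are not a full sample of the testis.

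Glycolysis turns glucose into pyruvate. Hexokinase starts it by phosphorylating glucose, and phosphoglycerate kinase carries out its first ATP-yielding step. Pyruvate is then either converted to lactate, and lactate back to pyruvate, by lactate dehydrogenase, or fed to the mitochondria through the pyruvate dehydrogenase complex, whose E1 alpha subunit comes from *Pdha1* or *Pdha2*. *Pgk1* and *Pdha1* lie on the X chromosome, which is silenced in pachytene spermatocytes, and *Pgk2* and *Pdha2* are autosomal retrogenes known for their use in meiotic and later male germ cells. *Ldhc* encodes the lactate dehydrogenase of spermatocytes and sperm, *Ldha* and *Ldhb* are used in many tissues, and Sertoli cells are known for making lactate that germ cells take up.

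In the GRCm38 annotation (GENCODE vM21) *Ldha* and *Ldhc* stood side by side on the plus strand of chromosome 7, at 46841475 to 46855627 and 46861203 to 46878142, with 5575 bases between them. *Ldhb* lay on chromosome 6 (142490249 to 142507957, minus strand). *Pgk1* (X, 106187100 to 106203699, plus strand) and *Pdha1* (X, 160122209 to 160138413, minus strand) each had 11 exons in the longest coding transcript. Their autosomal counterparts *Pgk2* (17, 40207015 to 40208640, minus strand) and *Pdha2* (3, 141210004 to 141212355, minus strand) each had 1 exon, whereas *Ldha*, *Ldhb* and *Ldhc* each had 8. *Hk1* (10, 62268855 to 62379908) and *Hk2* (6, 82725025 to 82774454), both on the minus strand, each had 18.

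The sequences upstream of the RefSeq transcription starts (GRCm38.p6) are shown for 3 pairs of a testis isoform and a more widely used one, *Ldhc* and *Ldha*, *Pgk2* and *Pgk1*, and *Pdha2* and *Pdha1*, so that the members of a pair can be set side by side. All 9 genes had a promoter window, of which 250 upstream bases were searched on both strands for TGACGTCA (the cyclic AMP response element, CRE), its part TGACG, the GC box GGGCGG, the hypoxia response element core ACGTG and the MYB motif AACNGTT. Capitals mark matches, and each sequence runs 5′ to 3′ and stops before the outermost annotated start of its gene. The *Ldha* stretch is an exception, since it ends at the first RefSeq start and lies inside the GENCODE gene, which starts farther upstream.
Ldha (chr7:46845554-46845803, + strand): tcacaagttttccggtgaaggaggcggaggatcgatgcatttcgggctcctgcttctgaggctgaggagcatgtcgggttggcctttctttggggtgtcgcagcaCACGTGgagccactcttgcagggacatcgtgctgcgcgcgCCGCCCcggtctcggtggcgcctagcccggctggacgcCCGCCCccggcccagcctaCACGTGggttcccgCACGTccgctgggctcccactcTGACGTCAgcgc
Ldhc (chr7:46861013-46861202, + strand): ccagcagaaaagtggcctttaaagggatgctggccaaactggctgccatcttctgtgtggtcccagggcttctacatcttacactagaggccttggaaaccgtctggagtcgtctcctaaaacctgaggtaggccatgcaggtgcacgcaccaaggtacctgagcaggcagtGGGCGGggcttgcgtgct
Pgk1 (chrX:106186850-106187099, + strand): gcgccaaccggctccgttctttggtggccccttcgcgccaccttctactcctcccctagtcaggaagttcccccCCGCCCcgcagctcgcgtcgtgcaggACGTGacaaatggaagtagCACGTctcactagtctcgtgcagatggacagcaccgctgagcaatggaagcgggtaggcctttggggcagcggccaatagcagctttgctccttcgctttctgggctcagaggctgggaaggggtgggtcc
Pgk2 (chr17:40208641-40208859, - strand): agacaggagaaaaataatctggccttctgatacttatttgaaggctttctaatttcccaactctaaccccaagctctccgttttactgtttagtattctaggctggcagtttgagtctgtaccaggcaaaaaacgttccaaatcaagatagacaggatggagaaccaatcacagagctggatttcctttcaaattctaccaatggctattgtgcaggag
Pdha1 (chrX:160138431-160138680, - strand): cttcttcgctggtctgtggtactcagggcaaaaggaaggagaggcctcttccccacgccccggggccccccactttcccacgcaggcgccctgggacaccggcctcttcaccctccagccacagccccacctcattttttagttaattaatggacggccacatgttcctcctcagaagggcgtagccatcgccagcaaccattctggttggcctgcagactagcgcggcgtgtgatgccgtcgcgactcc
Pdha2 (chr3:141212356-141212605, - strand): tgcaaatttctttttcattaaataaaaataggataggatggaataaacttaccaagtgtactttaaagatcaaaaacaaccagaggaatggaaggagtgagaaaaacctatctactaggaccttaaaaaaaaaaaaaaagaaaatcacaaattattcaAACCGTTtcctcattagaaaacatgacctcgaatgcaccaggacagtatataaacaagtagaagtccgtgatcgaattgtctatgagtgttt
*Ldha* and *Ldhc* had 2 RefSeq starts each, and the window of the outer one comes first. This *Ldha* window held a CRE, whose letters give its 2 overlapping TGACG matches, 2 GC boxes and 5 ACGTG matches counted over both strands, of which 4 came from the 2 palindromic CACGTG runs. The *Pgk1* window held 1 GC box and 2 ACGTG matches. No CRE, GC box or ACGTG was found upstream of *Ldhb*, *Pgk2*, *Pdha1* or *Pdha2*. The *Pdha2* window held 1 MYB match, and the *Ldhc* window held 1 GC box as well as 2 TGACG and 2 MYB matches that end past the stretch shown, nearer to the RefSeq start. The windows of the inner starts differed. That of *Ldha* (start 46847082) held 1 TGACG match and no CRE, GC box, ACGTG or MYB match, and that of *Ldhc* (start 46861487) held 1 MYB match and none of the others. Over 32851 promoter windows of the same length, the CRE was present in 1.55%, TGACG in 17.8%, the GC box in 32.7%, ACGTG in 16.6% and MYB in 3.80%. G and C made up 67.2% and 54.4% of the 250 bases in the outer and inner windows of *Ldha* and 54.4% and 59.2% in those of *Ldhc*. They made up 56.4% for *Ldhb*, 62.8% for *Pgk1*, 61.6% for *Pdha1*, 42.0% for *Pgk2* and 31.6% for *Pdha2*.

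After filtering and removal of likely doublets, the wild-type libraries kept 5644 and 7505 cells and the *Meioc*-null libraries 6554 and 6522, with 97377638 to 129313522 unique molecular identifiers (UMIs) per library. Wild-type germ cells fell into 10 clusters, numbered along the trajectory from undifferentiated spermatogonia, and *Meioc*-null cells were placed in them by their nearest wild-type cells. Cluster 1 was undifferentiated spermatogonia-like (6 of 7 markers detected), clusters 2 to 6 were differentiating spermatogonia-like (6 or 7 of 7), clusters 7 to 9 were early spermatocyte-like (6 or 7 of 8) and cluster 10 was pachytene spermatocyte-like. Only 4 of the 7 pachytene markers were detected in cluster 10, and its early spermatocyte score, scaled to the highest cluster, was still 0.949. *Ldhc* was not among the markers used. Cluster 10 held 261 and 307 wild-type cells and no *Meioc*-null cell, so it gives no comparison of genotypes. This count rests on the placing of *Meioc*-null cells by wild-type neighbours. The paper, which clustered cells of both genotypes together, assigned some *Meioc*-null cells to its pachytene cluster. Sertoli-like, peritubular myoid-like and Leydig-like cells each had 5 or 6 detected markers, and another somatic cluster, with *Clec3b* as its leading gene, stayed unnamed. Leydig-like cells numbered only 21 to 72 per library. The larger Sertoli-like cluster had a median of only 2181 UMIs per cell in wild type. Levels are given in CPM, the UMIs of a gene per 1000000 UMIs, with UMIs summed over the cells of a library and cluster. *Meioc* itself stood at 611 and 561 CPM in wild-type cluster 8 and at 826 and 795 CPM in *Meioc*-null cluster 8. The libraries count 3′ tags, and no source used here says which part of *Meioc* the allele removes, so its level is no check of the labels. A molecule gives 1 tag whatever its length, so levels of different genes can be set side by side, but the tags of *Ldha*, *Pgk1* and *Gapdh* may be undercounted where processed pseudogenes are near identical.

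*Ldhc* transcripts belonged almost wholly to the latest wild-type germ cells. Cluster 10 had 3345 and 1318 CPM in wild-type replicates 1 and 2, cluster 9 had 80.03 and 59.6, and in every earlier germ-cell cluster the level was 16.7 to 26.1 in replicate 1 and 3.24 to 8.30 in replicate 2. Cluster 10 made up 4.62% and 4.09% of the cells but held 95.01% and 92.04% of the *Ldhc* UMIs in cells. Below cluster 9 the level differed more between the libraries than between most cell types of a library. Peritubular myoid-like cells, which have no known use for *Ldhc*, stood at 22.9 and 5.79, Sertoli-like cells at 26.0 and 6.89 and Leydig-like cells, with 8 and 5 UMIs, at 12.8 and 5.00, beside 16.7 to 26.1 and 3.24 to 6.77 in clusters 2 to 8. Wild-type barcodes with 1000 or fewer detected genes, which were not analysed as cells, had 267 and 124 *Ldhc* CPM, and the corresponding *Meioc*-null barcodes had 1.45 and 0.949. The part of free RNA in the wild-type levels of clusters 1 to 8 was not tested beyond these values, and those levels are not read here as expression.

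**Figure D1:**
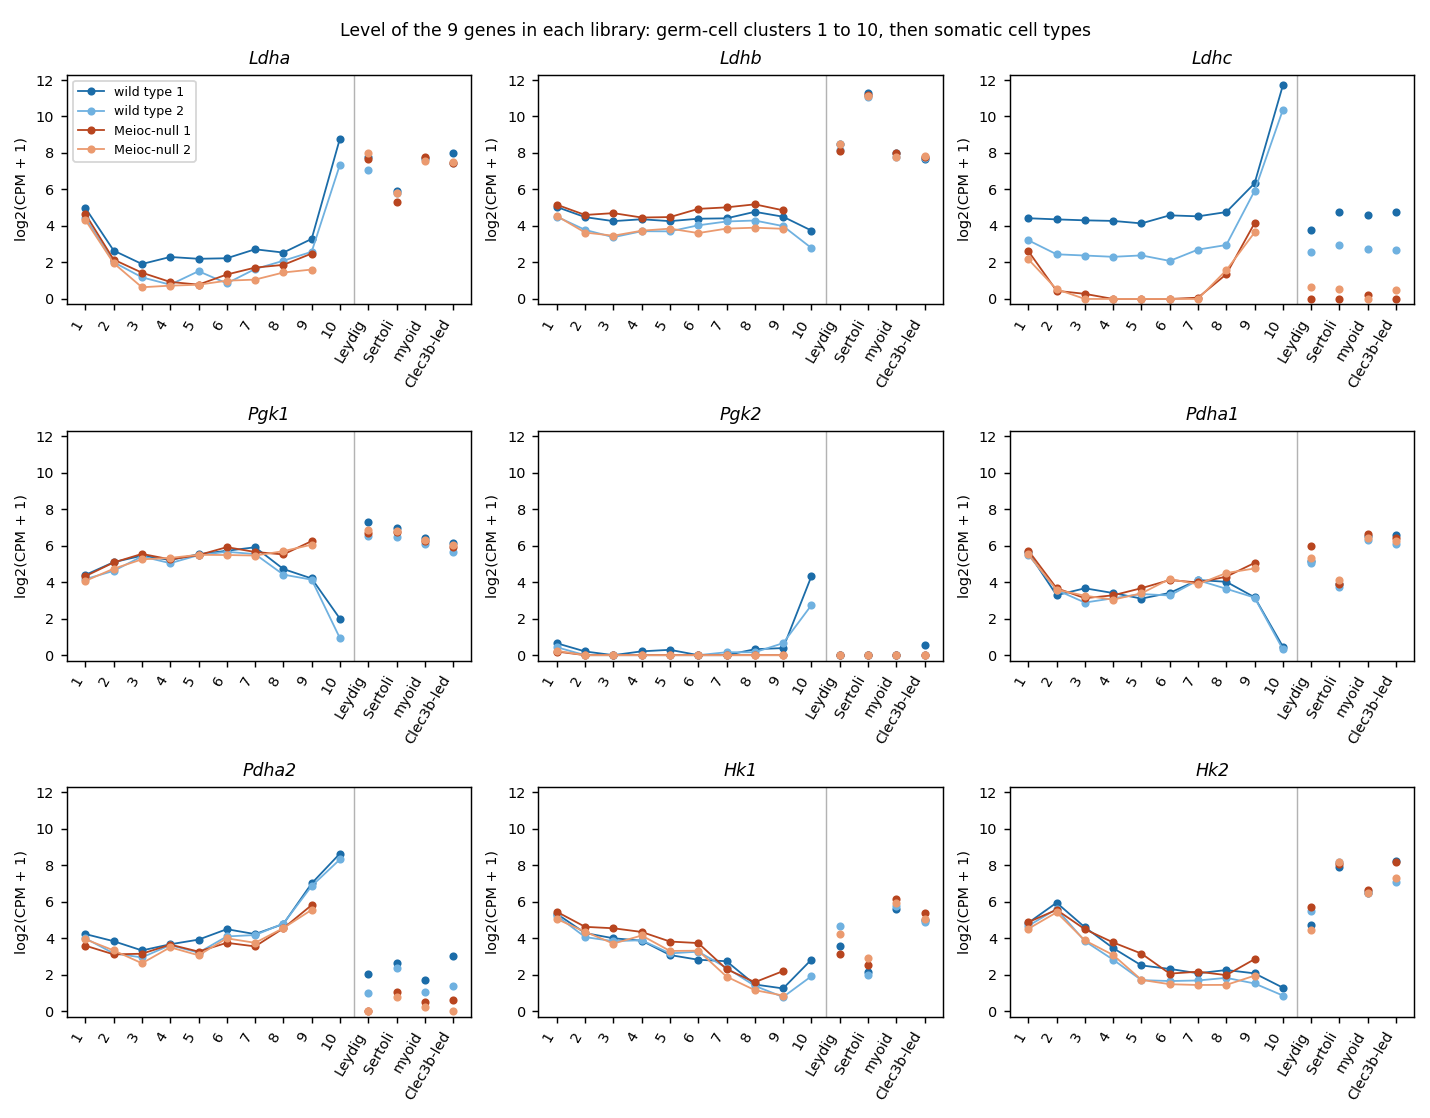
Level of each of the 9 genes, as log2(CPM + 1), in germ-cell clusters 1 to 10 (joined by lines) and in 4 somatic cell types, with 1 point per library (blue, wild type; red and orange, *Meioc*-null). *Ldhc*, *Pdha2*, *Ldha* and *Pgk2* reach their highest germ-cell levels in cluster 10, where *Pgk1* and *Pdha1* reach their lowest, and *Ldhb* stands apart in Sertoli-like cells.

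The somatic isoform *Ldha* did not fall where *Ldhc* rose. Its wild-type level was 30.7 and 20.9 in cluster 1 but 0.720 to 5.60 over clusters 2 to 8, and after 8.79 and 5.00 (cluster 9) it reached 443 and 163 (cluster 10). Both cluster 10 values lay far above every other germ-cell cluster, and they bracketed the level of myoid-like cells (210 and 202). In somatic cells of all libraries *Ldha* ranged from 39.2 in a Sertoli-like to 253 in a Leydig-like sample. *Ldhb*, whose product is the lactate dehydrogenase subunit typical of heart, was by far the main form in Sertoli-like cells, with 2525 and 2125 CPM in the wild-type and 2282 and 2238 CPM in the *Meioc*-null libraries. Myoid-like cells had 254 and 216 (wild type), and germ-cell clusters 2 to 8 had 9.44 to 35.4 over all libraries. In clusters 2 to 10 *Ldhb* UMIs stood to the summed UMIs of the 6 Sertoli markers at 0.266 to 0.382 to 1, against 0.276 to 0.331 in Sertoli-like cells themselves. Cluster 1 had a higher ratio of 0.445 to 0.591. The part of Sertoli RNA in the *Ldhb* level of clusters 2 to 10 was not tested further.

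*Pgk2* was the rarest of the 9 genes. It had 248 and 69 UMIs in wild-type cluster 10, or 19.0 and 5.68 CPM, and 0 to 8 UMIs per library in each other germ-cell or somatic type of either genotype. Its X-linked counterpart *Pgk1* went from 59.3 and 45.5 CPM in wild-type cluster 7 through 25.4 and 20.3 (cluster 8) and 17.4 and 16.6 (cluster 9) down to 2.99 and 0.906 (cluster 10). The 2 libraries kept the same order of clusters from 7 to 10 without overlap. Somatic *Pgk1* ranged from 48.9 in a Clec3b-led to 157 in a Leydig-like sample. Cells were also thinned to 5000 UMIs, which left out 38 and 15 shallower cells of wild-type cluster 10. Of the rest, 8.52% and 3.42% had a *Pgk2* UMI (exact binomial 95% intervals 5.21 to 13.0% and 1.65 to 6.21%). Before thinning it was 36.0% and 16.6% of all cluster 10 cells. Myoid-like cells had none in 534 and 531 thinned wild-type cells, which allows up to 0.688% and 0.692% of cells with a UMI at this depth by the exact interval and sets no limit on the share of cells with the transcript. In the same thinned cells *Ldhc* was seen in 93.3% and 87.3% of cluster 10, and in 10.3% and 3.95% of the myoid-like cells. Before thinning the median depth was 45634 and 35370 UMIs per cell in cluster 10 and 9763 and 10081 in myoid-like cells.

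*Pdha2* was counted in every germ-cell cluster. Wild-type cluster 1 had 17.9 and 15.0 CPM, clusters 2 to 7 had 6.76 to 21.7 and cluster 8 had 26.7 and 27.1. The level then rose to 128 and 116 (cluster 9) and 401 and 321 (cluster 10). Wild-type myoid-like cells had 2.35 and 1.05, and in each wild-type library every germ-cell cluster stood above every somatic type. Low-gene barcodes, those with 1000 or fewer detected genes, had 54.8 and 30.1 in wild type, more than clusters 1 to 8 of the same library. In the *Meioc*-null libraries, where such barcodes had 8.86 and 4.11, germ-cell clusters 1 to 8 had 5.22 to 22.6 and the somatic types 0 to 1.09. The part of free RNA in the *Pdha2* level of clusters 1 to 8 was not tested further. *Pdha1* went the other way. Cluster 1 had 48.4 and 44.4 CPM, clusters 2 to 7 had 6.38 to 16.4 and cluster 8 had 15.2 and 11.4. From there it fell to 8.02 and 7.90 (cluster 9) and 0.384 and 0.247 (cluster 10). Somatic *Pdha1* ranged from 12.4 in Sertoli-like to 98.4 in myoid-like samples.

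The hexokinases stayed at low levels in late germ cells. *Hk1* fell from 39.6 and 36.8 in wild-type cluster 1 to 1.39 and 0.725 in cluster 9 and stood at 6.14 and 2.80 in cluster 10. *Hk2* was highest among germ cells in cluster 2, at 61.0 and 47.9, and was at 1.46 and 0.824 in cluster 10. In Sertoli-like cells *Hk2* reached 237 and 292 and *Hk1* only 3.40 and 2.95. The Clec3b-led cluster had 304 and 137 for *Hk2*, a spread between replicates wider than in the other somatic types tested.

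Within each family the share of the testis isoform can be read with the counting error of each library. In wild-type cluster 10 *Ldhc* made up 88.0% and 88.6% of the summed UMIs of *Ldha*, *Ldhb* and *Ldhc* (88.3 ± 0.42, SD, n = 2). The lactate dehydrogenase retrogene *Ldhal6b*, higher than *Ldha* in wild-type clusters 9 and 10, was not counted, and with it the share would be lower. *Pgk2* made up 86.4% and 86.25% of phosphoglycerate kinase UMIs, and *Pdha2* made up 99.9% of E1 alpha UMIs in both libraries. In cluster 9 *Pdha2* was already at 94.1% and 93.6% and *Ldhc* at 72.4% and 75.0%, while *Pgk2* was at 1.74% and 3.38% (exact binomial 95% intervals 0.211 to 6.14% and 1.47 to 6.54%). The *Ldhc* share there depended on *Ldhb*, which stood to the Sertoli markers as in Sertoli-like cells. Of *Ldha* and *Ldhc* UMIs alone *Ldhc* made up 90.1% and 92.3% in cluster 9 and 88.3% and 89.0% in cluster 10, so with *Ldhb* left out the share did not rise between these clusters. *Hk2* made up 41.3% and 40.2% of hexokinase UMIs in cluster 1 and 76.7% and 75.2% in cluster 2, but only 19.2% and 22.7% in the last cluster, against 98.6% and 99.0% in Sertoli-like cells. Clusters were built from these same cells, so the stages were described and not tested. PCR-derived reads were collapsed to UMIs, and the intervals cover counting error only.

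**Figure D2:**
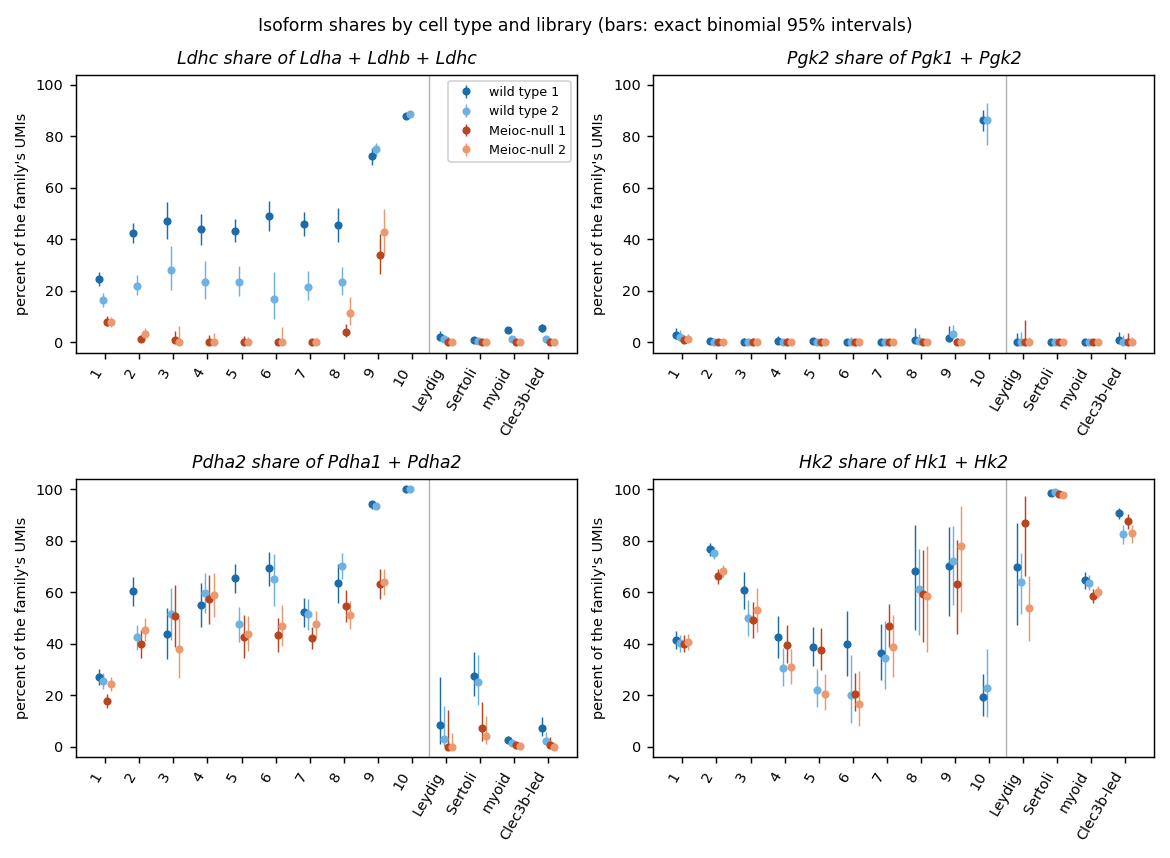
Share of 1 isoform in the UMIs of its family, counted over the members examined only, in percent, by germ-cell cluster (1 to 10) and somatic type, with 1 point per library and exact binomial 95% intervals as bars. The *Ldhc*, *Pgk2* and *Pdha2* shares are all at 86.25% or more in cluster 10, but in wild-type cluster 9 the *Pgk2* share is still at 1.74% and 3.38%.

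Cluster 10 was not uniform. When its wild-type cells were ordered by the share of their UMIs in the 7 pachytene markers and divided into 4 bins of equal size per library, *Ldhc* rose from 479 to 5412 CPM between the first and last bin of replicate 1 and from 310 to 2459 in replicate 2. *Hk1* was at 0, 1.72, 4.35 and 11.8 over the bins of replicate 1 and at 0, 2.92, 1.29 and 5.23 over those of replicate 2. *Pdha2* changed far less, from 277 to 452 and from 283 to 347. *Pgk2* rose from 1.26 to 34.0 and from 1.44 to 10.7. *Ldha* rose as well, from 36.6 to 766 and from 23.0 to 345, and the number of *Ldha* UMIs per 100 *Ldhc* UMIs went from 7.63 to 14.1 and from 7.42 to 14.0. The *Ldhc* share of the summed UMIs of *Ldha*, *Ldhb* and *Ldhc*, without *Ldhal6b*, stayed between 87.5% and 91.4% in all bins of both libraries. Median UMIs per cell also rose over the bins, from 23406 to 72907 and from 23748 to 48000.5, and their part in these differences was not tested. The pachytene markers were more abundant in replicate 1 (1367 to 3240 CPM over its bins) than in replicate 2 (1059 to 2432), and the replicate with more marker UMIs was also the one with more *Ldhc*, *Ldha* and *Pgk2*. *Pkm*, the pyruvate kinase of most tissues, fell over the bins in both libraries, from 68.1 to 16.7 and from 49.3 to 23.3.

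**Figure D3:**
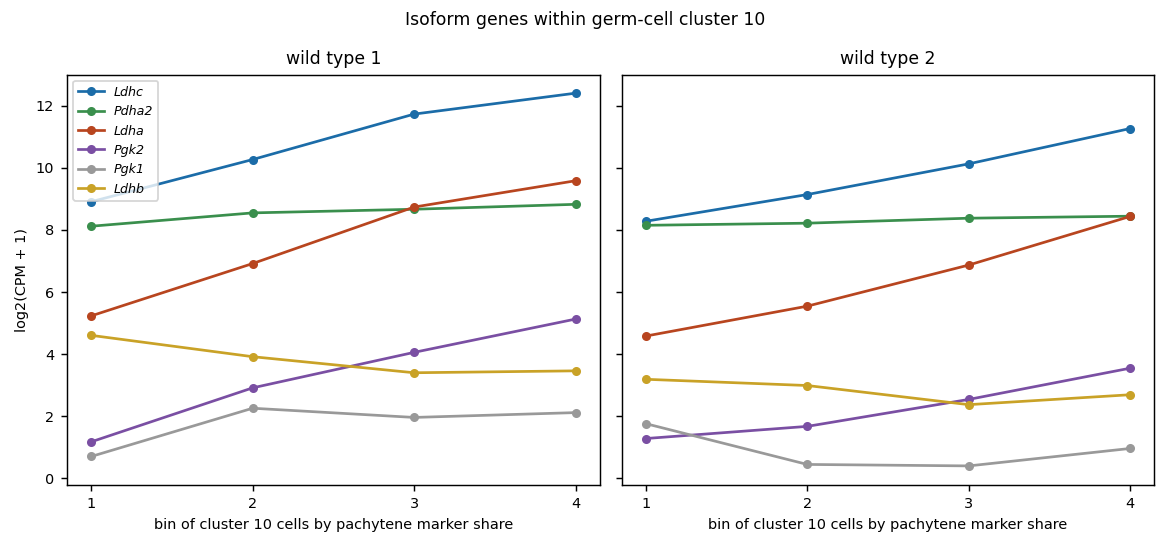
Levels within wild-type germ-cell cluster 10, as log2(CPM + 1), in 4 bins of cells ordered by the share of UMIs in pachytene markers, with 1 panel per library and 1 line per gene. *Ldhc* climbs 11.3-fold and *Ldha* 20.9-fold in wild type 1, from 479 to 5412 and from 36.6 to 766, while *Pdha2* starts high and moves little.

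Over the 14 wild-type cell types, with the mean of the 2 libraries on a log2(CPM + 1) scale and among 10998 genes that reached 20 CPM in some type, each member was matched to its most similar genes by Pearson's r, as a description. *Ldhc* was nearest to *Prps1l1* (r = 0.994), *Ttc30a2* (0.993) and *4833427G06Rik* (0.993), and *Pgk2* to *Acr* (0.991), which encodes the acrosomal protease acrosin, *1700108J01Rik* (0.990) and *Lrrc23* (0.989). *Pdha2* was nearest to *Ptpn20* (0.976), *1700029P11Rik* (0.975) and *Sprtn* (0.972). *Ldhb* was nearest to *Gm35533* (0.988), *Sytl4* (0.985) and *Slc16a3* (0.982), and *Slc16a3* encodes a monocarboxylate transporter that exports lactate. *Ldha* matched less closely, with *Zfp608* (0.956), *Setd1b* (0.938) and *Ppp3ca* (0.932). The nearest genes were *Mxd4* (0.958), *Irak1* (0.9505) and *Fundc1* (0.946) for *Pgk1*, and *Rpl3* (0.932), *Ppp1r15a* (0.928) and *Myh9* (0.928) for *Pdha1*. They were *Ski* (0.945), *Tnks1bp1* (0.942) and *Arhgap10* (0.934) for *Hk1*, and *Kank1* (0.978), *Cgnl1* (0.959) and *Mafk* (0.958) for *Hk2*. All points of a library share its depth and its free RNA, and *Ldhc* and *Pgk2* have by far their highest level in 1 of the 14, cluster 10.

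A list of 53 other glycolysis and pyruvate genes, 52 of which are in the count tables, put these families in context. Of the 40 that reached 10 CPM in some wild-type cell type, 23 were lower in cluster 9 than in cluster 7, 8 of them at least 2-fold. There were 24 that were higher in cluster 10 than in cluster 9. No share of all genes is at hand beside these counts, so they are not read as a trait of the pathway. Other testis isoforms did not all follow *Ldhc*. *Ldhal6b*, a lactate dehydrogenase retrogene, was at 28.5 and 22.7 in wild-type cluster 9 and 633 and 333 in cluster 10. *Eno4*, a sperm enolase, was at 16.1 and 13.7 in cluster 10. *Gapdhs*, the sperm glyceraldehyde-3-phosphate dehydrogenase, had 3 and 2 UMIs in cluster 10, *Aldoart2* had 16 and 5, and *Aldoart1* had none. *Mpc1l* is not among the rows of the count tables. *Gapdh* fell from 426 and 387 CPM in wild-type cluster 7 to 86.1 and 57.1 in cluster 8 and was at 63.3 and 68.1 in cluster 10. *Tpi1*, triosephosphate isomerase, stood at 2.93 and 1.74 in cluster 9 and at 164 and 87.4 in cluster 10.

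Wild-type and *Meioc*-null cells of the same cluster were then compared, to ask where along the trajectory the isoforms depend on genotype. Every *Meioc*-null cell was placed in a wild-type cluster, so a state found only in *Meioc*-null testes has no cluster of its own here. The paper did report such a cluster, of *Meioc*-null spermatocytes mainly in G2/M phase. The *Meioc*-null cells of clusters 7 to 9 may include cells of that kind. Differences within a cluster are differences between the cells so placed, and how far the 2 genotypes held the same states there was not tested. A gene was tested where at least 25% of the cells of either genotype had a UMI, and called at an adjusted p under 0.05 with an absolute log2 fold change over 0.1 (edgeR quasi-likelihood test, Benjamini-Hochberg adjustment within a cluster, wild type over *Meioc*-null). Of the 108 combinations of 9 genes and 12 tested cell types, 44 passed this filter and 5 were called, 1 in cluster 8 and 4 in cluster 9. In cluster 9 all 4 members that passed were called, where 66.7% of all 6687 genes tested were called, 32.9% as higher in wild type and 33.7% as higher in *Meioc*-null. In cluster 8 the 1 member that passed was called, where 46.5% of 5820 genes were called, 21.6% as higher in wild type and 24.9% as higher in *Meioc*-null. Calls were thus common in both clusters. The member of cluster 8 and 3 of the 4 members of cluster 9 passed the filter only through the genotype in which they were higher, so nothing is read from these counts.

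*Ldhc* was higher in wild type in cluster 9. Wild-type libraries had 80.03 and 59.6 CPM against 16.8 and 11.5 in the null (69.8 ± 14.4 against 14.2 ± 3.73, SD, n = 2 each), and the groups did not overlap. The log2 fold change was 2.39 (SE 0.18, adjusted p = 1.30e-08, edgeR quasi-likelihood test), with 2.25 and 2.37 within batches 1 and 2. Cluster 9 *Ldhc* passed the filter through wild type alone (50.4% of cells with a UMI against 18.6%). After the myoid-like level of the same library was subtracted, wild type kept 57.2 and 53.9 CPM against 16.7 and 11.5, a log2 ratio of 1.98 in place of 2.30 between the group means. With cells thinned to 5000 UMIs and shallower cells left out, 29.2% and 22.4% of wild-type and 6.50% and 5.05% of *Meioc*-null cluster 9 cells had an *Ldhc* UMI. Cluster 9 held 413 and 1007 wild-type and 208 and 281 *Meioc*-null cells, with medians of 12620 and 12010 against 13660 and 16519 UMIs per cell. The *Meioc*-null cells of cluster 9 had higher *Ldhc* values than those of cluster 8 (1.56 and 1.98) or of clusters 2 to 7 (0 to 0.448), and the 2 libraries gave the same order.

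*Pdha2* was also higher in wild type in cluster 9, at 128 and 116 against 55.7 and 46.3, with no overlap. The log2 fold change was 1.33 (SE 0.11, adjusted p = 3.77e-08, edgeR quasi-likelihood test), with 1.20 and 1.32 within batches, and both genotypes passed the filter (67.0% and 52.1% of cells). In cluster 8 it was at 26.7 and 27.1 against 22.5 and 22.6, below the filter. *Pgk2* passed the filter in no cluster. In cluster 9 it had 2 and 8 UMIs in wild type and 0 in both *Meioc*-null libraries, whose totals allow up to 0.988 and 0.617 CPM, so that a difference at the wild-type level of 0.308 and 0.580 was not detectable at this depth.

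The X-linked isoforms were higher in *Meioc*-null. *Pgk1* stood at 25.4 and 20.3 in wild type against 44.9 and 51.0 in cluster 8, and at 17.4 and 16.6 against 75.1 and 65.4 in cluster 9. The log2 fold changes were -1.06 (SE 0.17, adjusted p = 4.89e-05) and -1.98 (SE 0.13, adjusted p = 3.57e-09, edgeR quasi-likelihood test), with -0.82 and -1.33 within batches in cluster 8 and -2.11 and -1.98 in cluster 9. *Pdha1* stood at 8.02 and 7.90 in wild type against 32.3 and 25.9 in cluster 9. Its log2 difference was -1.79 (SE 0.20, adjusted p = 8.01e-07, edgeR quasi-likelihood test), with within-batch values of -2.01 and -1.71. Neither gene's groups overlapped. All 3 results passed the filter through *Meioc*-null cells alone, of which 41.7% and 64.4% had a *Pgk1* UMI in clusters 8 and 9 and 33.1% a *Pdha1* UMI in cluster 9.

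Other X-linked genes moved with them. X-linked genes gave 1.67% and 1.77% of wild-type and 3.68% and 3.59% of *Meioc*-null UMIs in cluster 9, and 0.154% and 0.184% in wild-type cluster 10. Of the 286 X-linked genes tested in cluster 9, 247 were called higher in *Meioc*-null and 9 higher in wild type, with a median log2 fold change of -1.10 against 0.03 for the 6401 other genes. Of the 286, 105 passed the filter through *Meioc*-null alone and 2 through wild type alone, and among the 179 that passed in both genotypes 145 were called higher in *Meioc*-null and 8 in wild type, with a median of -0.86. In cluster 8 the counts were 82 and 28 of 213, with a median of -0.21, and 45 and 26 of the 158 that passed in both. In cluster 7 they were 15 and 25 of 207, and the X-linked share was 2.60% and 2.62% for wild type against 2.55% in both *Meioc*-null libraries. What the chromosome as a whole contributes to the *Pgk1* and *Pdha1* differences was not tested.

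**Figure D4:**
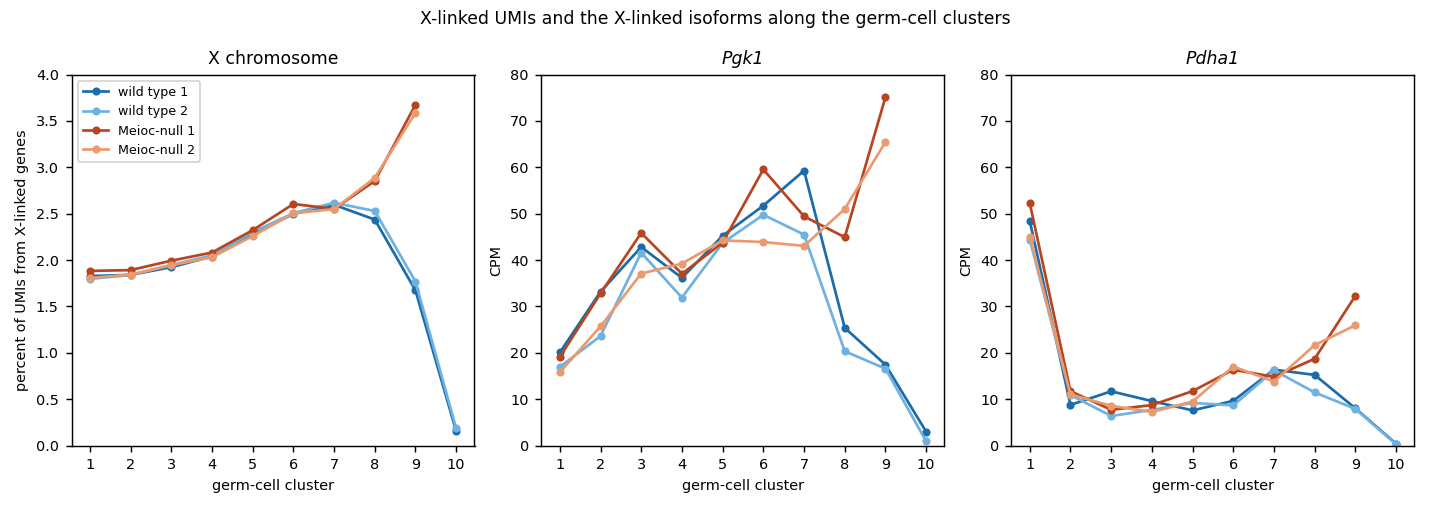
Percent of UMIs from X-linked genes, and CPM of the X-linked isoforms *Pgk1* and *Pdha1*, in germ-cell clusters 1 to 10 with 1 line per library. Between clusters 8 and 9 the wild-type lines drop and the *Meioc*-null lines climb, in the X-linked share to 1.67% and 1.77% against 3.68% and 3.59% of UMIs in cluster 9.

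In the earlier clusters and the somatic types no member was called, and outside clusters 6 and 7 few genes were. The called share of all genes was 0.0119%, 0.012%, 0.0522%, 0% and 0% in clusters 1 to 5, 2.36% in cluster 6 and 26.5% in cluster 7. For Sertoli-like, myoid-like and Clec3b-led cells it was 0.205%, 0.0762% and 0.0226%. In clusters 4 and 5, with 0 calls by edgeR, an unadjusted p under 0.05 was reached by 134 and 385 genes. The DESeq2 test gave 1 and 12 calls there, and the edgeR fit with the littermate pairs as a block gave 67 and 532 (0.941% and 7.7%). The members with an unadjusted p under 0.05 were *Ldhc* in cluster 1, *Hk2* in cluster 2 (log2 fold change 0.32, SE 0.12) and *Hk1* in myoid-like cells (-0.32, SE 0.16). *Pgk1*, the only member to pass the filter in each of clusters 1 to 9, had log2 fold changes from -0.15 to 0.23 in clusters 1 to 7. With the littermate pairs as a block, *Pgk1* in cluster 7 was called (0.23, adjusted p = 0.0439 against 0.202 without the block, edgeR quasi-likelihood test), where that fit called 45.6% of all genes.

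The call for *Ldhc* in cluster 1 depended on the test. Wild-type libraries had 20.5 and 8.30 CPM against 5.16 and 3.51, which gave a log2 difference of 1.73 (SE 0.55, unadjusted p = 0.0448, not called after adjustment in the edgeR quasi-likelihood test). With the littermate block it was 1.69 with an adjusted p of 1.25e-19 (edgeR quasi-likelihood test, 0.322% of genes called), and DESeq2 called it too (1.75, adjusted p = 0.00192). The myoid-like cells of the same libraries had 22.9 and 5.79 against 0.141 and 0, so after subtraction the wild-type cluster 1 was left with -2.40 and 2.51 and the *Meioc*-null cluster 1 with 5.02 and 3.51. The wild-type excess in cluster 1 was thus no larger than the difference between the myoid-like cells of the same libraries. In *Meioc*-null libraries, where the level in other cell types was low, cluster 1 stood above clusters 2 to 8 and above all 4 somatic types (0 to 0.591) in both replicates, with 70 and 59 UMIs.

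The genotype effect was also compared between neighbouring clusters (edgeR quasi-likelihood test of the interaction, Benjamini-Hochberg adjustment, later minus earlier cluster). From cluster 7 to 8 the effect on *Pgk1* moved by -1.26 (SE 0.17, adjusted p = 5.79e-06), where 36.6% of genes tested were called. From cluster 8 to 9, where 53.6% were called, *Pgk1* moved by a further -0.88 (SE 0.19, adjusted p = 6.93e-05), *Pdha1* by -1.14 (SE 0.26, adjusted p = 0.000225) and *Pdha2* by 1.05 (SE 0.17, adjusted p = 2.52e-07). *Ldhc* moved by -0.56 (SE 1.05, adjusted p = 0.702) between these clusters, with an SE larger than the difference itself. From cluster 1 to 2, where 0.0661% of genes were called, *Ldhc* moved by 2.97 (SE 0.38, adjusted p = 1.65e-05). The call was lost without wild type replicate 1, which leaves 1 wild-type library (2.43, adjusted p = 0.0974), and with 15 neighbours in the clustering (3.52, adjusted p = 0.0783, edgeR quasi-likelihood test). Its wild-type level there was 20.5 and 8.30 in cluster 1 and 19.6 and 4.46 in cluster 2, while the *Meioc*-null level went from 5.16 and 3.51 to 0.364 and 0.448. The wild-type values of both clusters were near the myoid-like level of the same library (22.9 and 5.79) and are not read as expression.

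In the rest of the pathway both directions were seen in cluster 9. Of 21 list genes that passed the filter, 13 were called higher in *Meioc*-null and 4 higher in wild type, beside 33.7% and 32.9% of all genes tested, with a median log2 fold change of -0.72 against -0.01 for all genes tested. This tally rests in part on the filter. Of the 21, 14 passed it in both genotypes, with 7 called higher in *Meioc*-null and 4 in wild type, and 7 passed it through *Meioc*-null alone, with 6 called higher there. Without the filter, 18 of 49 list entries were called higher in *Meioc*-null and 9 in wild type, beside 15.8% and 16.4% of all 20678 genes. *Aldoa* was counted there once for each of its gene IDs. *Tpi1* was at 2.93 and 1.74 in wild type against 53.7 and 41.8 (log2 fold change -4.38, SE 0.24), *Gapdh* at 54.6 and 46.9 against 892 and 845 (-4.05, SE 0.13), *Gpi1*, glucose-6-phosphate isomerase, at 12.2 and 7.46 against 57.7 and 35.2 (-2.21, SE 0.25) and *Pkm* at 72.3 and 48.2 against 220 and 200 (-1.77, SE 0.14). *Pdp1*, a phosphatase that activates pyruvate dehydrogenase, was likewise higher there (-1.38, SE 0.21). The 4 genes higher in wild type were *Pdhb* (0.85, SE 0.10), which encodes the E1 beta partner of *Pdha2*, *Dlat* (0.77, SE 0.12) and *Pdhx* (0.64, SE 0.17) of the same complex, and *Mpc2* (0.74, SE 0.13), a subunit of the mitochondrial pyruvate carrier. The other carrier subunit gene, *Mpc1*, was higher in *Meioc*-null, at 417 and 485 against 177 and 177. The 5 list genes that only the fit without the filter called higher in wild type were *Slc2a3*, a glucose transporter gene, at 35.3 and 20.7 against 3.62 and 3.29, *Ldhal6b* at 28.5 and 22.7 against 10.9 and 10.1, the phosphofructokinase gene *Pfkm* (log2 fold change 1.64, SE 0.30 in that fit), and the enolase genes *Eno3* and *Eno4*. Other members of these families went the other way. That fit, unlike the fit with the filter, called the glucose transporter gene *Slc2a4* higher in *Meioc*-null (-3.82, SE 0.448). The same held for the enolase gene *Eno2* (-3.97, SE 1.26) and the phosphofructokinase gene *Pfkl*, at 1.39 and 0.942 against 7.25 and 3.29. It also held for *Pdp2* and *Aldoa*. The largest adjusted p among the genes named for cluster 9 that the fit with the filter called was 0.00316 (*Pdhx*, edgeR quasi-likelihood test).

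In cluster 8, 6 of 14 list genes that passed were called higher in *Meioc*-null, 2 of them having passed through *Meioc*-null alone, and 5 higher in wild type, beside 24.9% and 21.6% of all genes, with a median of -0.07 against -0.01. *Gapdh* (-2.52, SE 0.15), *Pkm* (-1.56, SE 0.14), *Pgam1*, phosphoglycerate mutase (-1.20, SE 0.16), the lactate transporter gene *Slc16a1* (-0.996, SE 0.15) and *Gpi1* (-0.89, SE 0.21) led those higher in *Meioc*-null. *Dlat* (0.63, SE 0.14), *Pdhb* (0.44, SE 0.15), *Mpc2* (0.36, SE 0.13), *Pdk3* (0.35, SE 0.12) and *Bsg* (0.34, SE 0.13) were higher in wild type. Without the filter 11 of 50 list entries were called higher in *Meioc*-null and 5 in wild type. No share of all genes is at hand for that fit in this cluster, so nothing is read from these counts. *Mpc2*, *Pdk3* and *Bsg* were not called without the filter (adjusted p = 0.106, 0.0639 and 0.171, edgeR quasi-likelihood test). In cluster 7 the counts were 5 and 2 of 17, where 15.8% and 10.8% of all genes tested were called in these directions, with a median of 0.04 against 0.00. Without the filter they were 6 and 6 of 50 list entries, again with no share of all genes at hand and not read further. *Eno1*, enolase (-1.05, SE 0.15), *Pgam1* (-1.04, SE 0.13), *Mpc1* (-0.36, SE 0.12), *Slc16a1* (-0.33, SE 0.11) and *Dld* (-0.31, SE 0.11) were higher in *Meioc*-null, *Eno1* having passed the filter through *Meioc*-null alone (15.3% of wild-type and 29.3% of *Meioc*-null cells), and *Pdhb* (0.36, SE 0.11) and *Pdk3* (0.35, SE 0.10) in wild type. *Gapdh* in cluster 7 had 426 and 387 against 415 and 404, so its difference was first called in cluster 8. *Pgam1* (-0.87, SE 0.15) and *Eno1* (-0.80, SE 0.18) were the 2 of 17 list genes called in cluster 6, where 2.36% of all genes were, and no list gene was called in clusters 1 to 5 or in the somatic types. With the littermate block *Pgam1* was called in clusters 4 and 5 as well and *Slc16a1* in cluster 5, *Bsg* and *Mpc2* were added in cluster 7, and *Aldoa* and *Pdk3* in cluster 9. Over all cell types list genes gave 11 calls higher in wild type. These were 2, 5 and 4 in clusters 7, 8 and 9, where 10.8%, 21.6% and 32.9% of all genes tested were called in this direction.

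**Figure D5:**
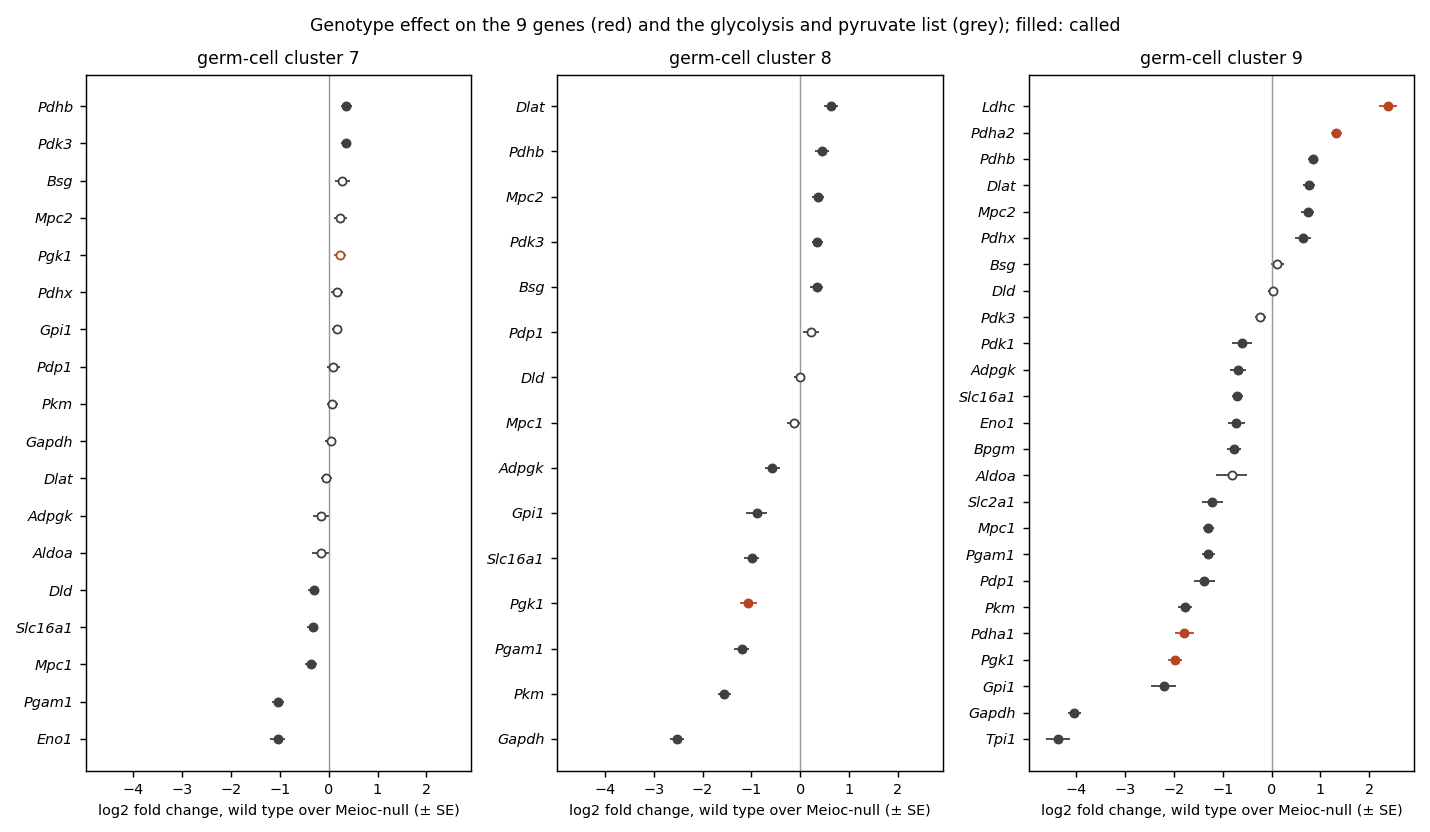
Log2 fold change of wild type over *Meioc*-null with its SE, in germ-cell clusters 7, 8 and 9, for the members (red) and list genes (grey) that passed the filter, with filled points for called genes. *Gapdh* and *Pkm* leave 0 between clusters 7 and 8, and in cluster 9 *Ldhc* (2.39) and *Pdha2* (1.33) lie at the wild-type end while *Pgk1* (-1.98) and *Pdha1* (-1.79) lie among the genes higher in *Meioc*-null.

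The *Ldhc* and *Pdha2* shares also differed between genotypes in cluster 9. *Ldhc* made up 72.4% and 75.0% of the wild-type UMIs of *Ldha*, *Ldhb* and *Ldhc* against 34.0% and 42.7%. *Ldhal6b* was not counted. The difference was 35.3 percentage points, with 38.4 and 32.2 within batches. It was smaller with *Ldhb* left out. Of *Ldha* and *Ldhc* UMIs alone the wild-type libraries had 90.1% and 92.3% *Ldhc*, with intervals of 87.4 to 92.4% and of 90.3 to 93.9%. The *Meioc*-null libraries, with 65 and 66 such UMIs, had 78.5% (66.5 to 87.7%) and 84.8% (73.9 to 92.5%). That difference was 9.53 points, with 11.6 and 7.42 within batches, and 7.50 points once the myoid-like *Ldhc* level was subtracted. *Pdha2* made up 94.1% and 93.6% against 63.3% and 64.1%, a difference of 30.2 points with 30.8 and 29.5 within batches. The *Pgk2* gap of 2.56 points rested on 2 and 8 wild-type *Pgk2* UMIs against 0 in both *Meioc*-null libraries and is not read as a difference. *Hk2* differed by 0.56 points, with 6.67 and -5.56 within batches. With 2 libraries per genotype the two-sided exact permutation test cannot give a p below 0.333, which is the value it gave for *Ldhc*, *Pdha2* and *Pgk2*, and it gave 1 for *Hk2*. The *Pdha2* share was also apart in some earlier clusters, at 69.2% and 65.2% against 43.4% and 46.9% in cluster 6 (22.1 points, with 25.9 and 18.3 within batches). In cluster 7 it was at 52.1% and 51.4% against 42.1% and 47.6%, and in cluster 8 at 63.6% and 70.3% against 54.5% and 51.1% (14.1 points). In clusters 2, 3 and 4 the groups overlapped. Sertoli-like cells had a gap of similar size, at 27.4% and 25.0% against 7.14% and 4.23% (20.5 points). The part of free RNA in the *Pdha2* shares of clusters 6 to 8 was not tested. *Pdha1* in cluster 6, below the filter, stood at 9.64 and 8.65 CPM in wild type against 16.4 and 17.0. *Ldhc* shares in clusters 1 to 8 also differed between genotypes, for example 45.6% and 23.6% against 3.94% and 11.2% in cluster 8. The wild-type *Ldhc* level there was that of the myoid-like cells of the same library to within 3.28 and 0.985 CPM, and these shares are not read as isoform use.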

How the data were processed

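Per the labels, single-cell 3′ libraries were made with 10x Genomics chemistry, and the authors counted reads with Cell Ranger 4.0.0 against the mm10 reference (GRCm38). The deposited tables hold raw UMI counts per gene and barcode, without normalization. The study also applied a doublet filter that was replaced here. Barcodes with more than 1000 detected genes and less than 10% mitochondrial UMIs were kept, and the highest Scrublet scores were removed at 0.8% per 1000 deposited barcodes (690 to 996 per library). Any 2 libraries shared 12 to 16 barcodes, at most 0.253% of the smaller. Wild-type cells were clustered with scanpy 1.11.5 (2000 variable genes without the listed genes, 30 components, 20 neighbours, Leiden) and all cells took the commonest cluster of their 30 nearest wild-type cells. This returned 98.7% of wild-type germ cells to their own cluster. Each wild-type cell was among its own neighbours, so that figure does not measure how well *Meioc*-null cells were placed. Germ-cell clusters were named by the class score scaled to its highest cluster, a rule set after the clusters were seen. A cluster of low UMI counts was left out.

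Sums of counts per cluster and library went into edgeR 4.0.16 (TMM scaling and the quasi-likelihood test, with no term but genotype), for types with 50 or more cells in every library. Cluster 10 and Leydig-like cells did not reach this number. The script recovered 98% of 2-fold and 73% of 1.5-fold changes in data simulated for cluster 9 (6687 genes). The simulation changed few genes, alike in both directions, in independent libraries. In the real cluster 9, 66.7% of genes were called, so these figures do not give the power there. Replicate numbers mark littermate pairs, and deviations of same-numbered libraries correlated at 0.187 to 0.664 over the tested types. Shares were compared by exact permutation. Alternatives were DESeq2 1.42.0 as test and as scaling, no detection filter, the littermate block, each library left out, Bonferroni adjustment, no doublet removal, a 5% mitochondrial limit, 15 neighbours, at least 8 clusters and placing without called genes. Subtraction of the myoid-like level and *Ldhc* shares without *Ldhb* were added after the data were seen. Named were all 9 members, the 5 called list genes with the largest change in each direction in clusters 7 to 9, the testis isoforms of the list, and the 3 genes most like each member. *Meioc*, *Pgam1* and *Eno1* in cluster 6, *Mpc1* in cluster 9, *Tpi1*, *Gapdh* and *Pkm* in wild type, and the genes called only with the block or without the filter were named after their values were seen. The members and lists were chosen with earlier results of these data known. Coordinates came from GENCODE vM21, in which 32235 of 32285 gene IDs had a match.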

Additional observations from a re-analysis of the deposited data

Results flagged for a closer look

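In 5 cases the effect of genotype on a member differed between neighbouring germ-cell clusters (edgeR quasi-likelihood interaction, Benjamini-Hochberg adjustment, later minus earlier cluster, log2). The effect on *Ldhc* moved by 2.97 from cluster 1 to 2. That on *Pgk1* moved by -1.26 from cluster 7 to 8 and by -0.88 from cluster 8 to 9. From cluster 8 to 9 that on *Pdha1* moved by -1.14 and that on *Pdha2* by 1.05. For *Ldhc* the wild-type level minus that of the myoid-like cells of the same library was -2.40 and 2.51 CPM in cluster 1 and -3.30 and -1.33 in cluster 2. Without wild type replicate 1 the value was 2.43 (adjusted p = 0.0974), and with 15 neighbours in the clustering it was 3.52 (adjusted p = 0.0783). The *Pgk1*, *Pdha1* and *Pdha2* values were called with the littermate block. They were also called with each library left out in turn, but 1 genotype is then a single library and the spread comes from the other.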

How the results depend on the processing

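The numbers of calls moved as follows. As reported, over 12 cell types, members had 2 calls above *Meioc*-null in wild type and 3 below, and 5 neighbouring-cluster calls. List genes had 11 and 26 calls. Of all genes tested, 26.5%, 46.5% and 66.7% were called in clusters 7, 8 and 9. Counts of calls are therefore not read here as results about the members or the list. Each gene in each cell type counts as 1 call, here and below. Without the detection filter the counts became 15 and 4 calls of members and 31 and 38 of list genes, beside 2.68% and 3.11% of all tests. Members then had 9 neighbouring-cluster calls. Of the 15, 9 were *Ldhc*, 3 of them in somatic types, 3 were *Ldha* and 3 *Pdha2*, of which 1 was in Sertoli-like cells. Apart from cluster 9, the germ-cell calls of *Ldhc* were in clusters 1, 3, 4, 7 and 8. Wild-type *Ldhc* minus the myoid-like level was, for example, -4.48 and -1.83 CPM in cluster 4 and 3.28 and 0.985 in cluster 8. The *Ldhc* calls outside cluster 9 are not read as expression. The littermate block gave 4 calls of members higher in wild type, beside 7.56% of all tests. Those added were *Ldhc* in cluster 1 and *Pgk1* in cluster 7, and the block changed no other call of a member. It gave 13 and 31 list genes, beside 7.56% and 8.34% of all tests. With Bonferroni adjustment over genes and clusters the list counts were 1 and 10, with no share of all tests at hand. Leaving out 1 library, where the lone library of a genotype is assumed to vary like the other group, gave 2 to 3 members above and 3 below, 6 to 7 and 22 to 25 list genes, and 4 to 7 neighbouring-cluster calls.

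With the 5% mitochondrial limit cluster 9 had too few cells to be tested, and the counts were 0 and 0 members and 0 and 2 list genes. Cluster 8 cells then shared a cluster with those of cluster 7, and *Dlat* (-0.11) and *Gapdh* (0.11) changed sign there. The cluster 10 shares under that limit were 88.8% (*Ldhc*), 84.7% (*Pgk2*) and 99.9% (*Pdha2*). Without doublet removal they were 87.7%, 78.9% and 99.8%, that of *Hk2* was 30.9%, and the *Pdha2* difference in cluster 9 was 29.2 points. With 15 neighbours that difference was 30.9 points and the cluster 10 shares of *Pgk2* and *Pdha2* were 82.9% and 99.9%. With at least 8 clusters the *Pgk2* share was 86.9%. Leaving out 1 library gave cluster 9 differences of 30.9 to 39.7 points for *Ldhc*, 1.74 to 3.38 for *Pgk2*, 29.8 to 30.6 for *Pdha2* and -6.67 to 7.78 for *Hk2*. With *Ldhb* left out the *Ldhc* difference was 9.53 points, and 7.50 with the myoid-like level also subtracted. *Ldhc*, *Pdha2*, *Pgk1* and *Pdha1* in cluster 9 stayed called under every alternative that could test them. In an alternative clustering, cluster 9 stands for the cluster matched to it. That cluster held 58.8% of the cluster 9 cells with 15 neighbours and 91.9% without doublet removal. *Pgk1* in cluster 8 was not called under Bonferroni adjustment. Among single genes, 413 values kept their direction and side of the threshold, 79 lost and 5 gained a call, 1 value without a test moved and 2 changed sign, as given. The causes were not tested. *Pgk2* counts and the absence of *Meioc*-null cells in cluster 10 limit what can be compared.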
